A study of Drosophila melanogaster with 6 samples.

Results

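The Notch receptor gene N, its DNA-binding partner Su(H) and 4 target genes of the Enhancer of split complex, malpha, HLHmbeta, HLHm3 and E(spl), were followed in RNA sequencing of adult Drosophila melanogaster midguts. These 6 genes were chosen by name among the 15391 genes of the count table, where E(spl) stands for the m8 gene of the complex. N (FBgn0004647) lies on chromosome X and Su(H) (FBgn0004837) on arm 2L. The genes malpha (FBgn0002732), HLHmbeta (FBgn0002733), HLHm3 (FBgn0002609) and E(spl) (FBgn0000591) lie on arm 3R, and no exon of the 6 overlaps that of another annotated gene. The knockdown group (Rab11_KD, n = 3 libraries) came from flies in which RNA interference against Rab11, a small GTPase of recycling endosomes, was driven by Myo1AGal4, and the control group (WT, n = 3) from flies described as wild type. The driver is active in enterocytes, the absorptive cells of the gut. The flies of both groups were moved to 29 °C at 5 days of adult age and stayed there for 5 days, and total RNA was taken from whole dissected midguts, although the labels give the cell type as enterocyte. The labels give no allele of the RNA interference line, no driver-only control and no number of guts per library.

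Notch is a receptor that is cut when it binds Delta or Serrate on a neighbouring cell, and its freed intracellular domain then enters the nucleus and joins Su(H), a DNA-binding protein that otherwise keeps target genes repressed. The classic targets lie in the Enhancer of split complex, a gene cluster on chromosome arm 3R that encodes bHLH repressors and small proteins of the Bearded family. In the fly midgut, stem cells carry Delta, their enteroblast daughters respond through Notch, and the strength of that response helps to decide between an enterocyte and an enteroendocrine fate.

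Total counts ran from 9818914 to 33082790 per library, with 33082790 and 30610335 in the replicate 3 libraries and at most 11857507 in the other 4. Levels are given as CPM, counts relative to library sizes scaled by TMM, on which 1 count was worth between 0.0209 and 0.127 CPM. Rab11 itself lay between 64.4 and 78.7 CPM in the knockdown and between 219 and 319 CPM in the wild type (log2 fold change -1.87, edgeR adjusted p = 0.00342). Illumina and Ion Torrent sequencing are both named, without saying which was used for which library. Within the wild type, replicate 2 gave the highest level for 5 of the 6 genes (N, malpha, HLHmbeta, HLHm3 and, from 1 count, E(spl)). The same held for 6 of 8 markers of stem cells and enteroblasts and for 4 of 10 enteroendocrine markers. No share over all genes is given for this. Values without this library are given below where they differ.

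In the knockdown, transcripts of the bHLH repressor gene HLHm3 rose 2.93-fold. The receptor gene N and malpha, a Bearded family gene, exceeded every control in each knockdown library without passing the test. HLHmbeta and Su(H) showed no difference beyond the spread between libraries, and E(spl) was close to the limit of detection. With edgeR's quasi-likelihood test and Benjamini-Hochberg adjustment over all 8377 genes tested, 1 of the 5 genes with enough counts was called as higher and 0 as lower at an adjusted p under 0.05. Of all genes tested, 9.05% were called as higher and 7.63% as lower. The median log2 fold change of the 5 was 0.86, and that of all genes tested was 0.04.

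N encodes the receptor. Its counts were 170, 97 and 661 in knockdown replicates 1, 2 and 3 and 36, 69 and 160 in wild-type replicates 1, 2 and 3. On the CPM scale N stood at 12.0, 11.0 and 13.8 in the knockdown and at 4.57, 8.78 and 5.03 in the wild type. The groups did not overlap, and wild-type replicate 2 came closest to the knockdown. Means were 12.3 ± 1.45 CPM (SD, n = 3) and 6.13 ± 2.31 CPM (SD, n = 3). The log2 fold change was 1.01 with a 95% interval of 0.28 to 1.75 and an edgeR adjusted p of 0.068. N was called with the replicate number as a block (log2 fold change 1.07, edgeR adjusted p = 0.0372), a fit in which 15.2% of all genes were higher, and with DESeq2 (adjusted p = 0.0296), which placed 10.6% of genes higher. It was also called without wild-type replicate 2 (1.36, edgeR adjusted p = 0.0357), where 4.60% of genes were higher. That library was the highest control for N, so its removal alone raises the fold change. The edgeR adjusted p was 0.122 to 0.180 with any other single library left out. It was 0.0844 with no filter on low counts and 0.0578 with upper-quartile factors, and N was not called in any of these fits. An exact two-sided permutation test over the 6 libraries gave p = 0.1, and no smaller p is possible with 3 libraries in each group.

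Su(H) encodes the DNA-binding protein through which the receptor acts. It was counted 54, 26 and 190 times in the knockdown and 27, 24 and 101 times in the wild type, or 3.82, 2.94 and 3.98 CPM against 3.43, 3.06 and 3.18 CPM. The groups overlapped, with knockdown replicate 2 below every wild-type library. The log2 fold change of Su(H) was 0.16, and its 95% interval of -0.54 to 0.86 leaves room for changes of either sign (edgeR adjusted p = 0.764). A doubling, at a log2 fold change of 1, lies outside that interval.

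HLHm3 encodes a bHLH repressor of the complex and was the gene of the 6 that rose. Its level was 19.2, 23.5 and 13.6 CPM in the knockdown, from 271, 208 and 651 counts. In the wild type it was 4.95, 10.1 and 4.34 CPM, from 39, 79 and 138 counts. Every knockdown library lay above every wild-type library, and wild-type replicate 2 was the highest of the controls. Its 95% Poisson interval of 7.96 to 12.5 CPM did not reach the levels of the other controls, so that the controls differed from each other by more than counting error. The means were 18.8 ± 4.95 and 6.45 ± 3.14 CPM (SD, n = 3 each), and the log2 fold change was 1.55 ± 0.39 (SE, edgeR adjusted p = 0.0353). The edgeR call did not survive the removal of knockdown replicate 1 (adjusted p = 0.118) or 2 (0.113), nor that of wild-type replicate 1 (0.115) or 3 (0.0853), and it held without either of the other 2 libraries. The log2 fold change stayed between 1.27 and 2.02 in these fits.

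HLHmbeta, a second bHLH repressor gene, lay in a narrow range in the knockdown, at 13.8, 12.7 and 12.3 CPM. In the wild type it was at 6.86 and 5.60 CPM in replicates 1 and 3 and at 16.8 CPM in replicate 2, above the whole knockdown group. The groups therefore overlapped through a single library, which held 132 counts and whose 95% Poisson interval of 14.1 to 19.9 CPM lies above both other controls. The log2 fold change of HLHmbeta was 0.42 with a 95% interval of -0.56 to 1.4 (edgeR adjusted p = 0.549). Without wild-type replicate 2 it was 1.06 (edgeR adjusted p = 0.061), and without wild-type replicate 3 it was 0.08.

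The Bearded family gene malpha encodes a small protein that dampens Notch signalling by blocking the ligand-endocytosis factor Neuralized. It reached 9.40, 7.80 and 5.51 CPM in the knockdown, from 133, 69 and 263 counts, and 3.94, 4.84 and 3.77 CPM in the wild type, from 31, 38 and 120 counts. The groups did not overlap, although knockdown replicate 3 was close to wild-type replicate 2. The log2 fold change was 0.86 with a 95% interval of 0.14 to 1.57 (edgeR adjusted p = 0.1). With the replicate number as a block the adjusted p for malpha was 0.0699. Without wild-type replicate 2 its log2 fold change was 0.97 (edgeR adjusted p = 0.144).

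E(spl), the m8 bHLH gene, is a strong Notch target in other fly tissues and was almost silent here. The knockdown libraries gave 1, 4 and 4 counts and the controls 0, 1 and 0, which is 0.0707, 0.452 and 0.0838 CPM against 0, 0.127 and 0 CPM. The library ranges overlapped, and E(spl) did not reach the minimum for the test. Pooled by group, E(spl) had 9 counts against 1, or 6.05 times as many after scaling, and counting error alone allows 0.838 to 265 (95%, exact binomial). A difference in E(spl) was not detectable at this depth.

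**Figure D1:**
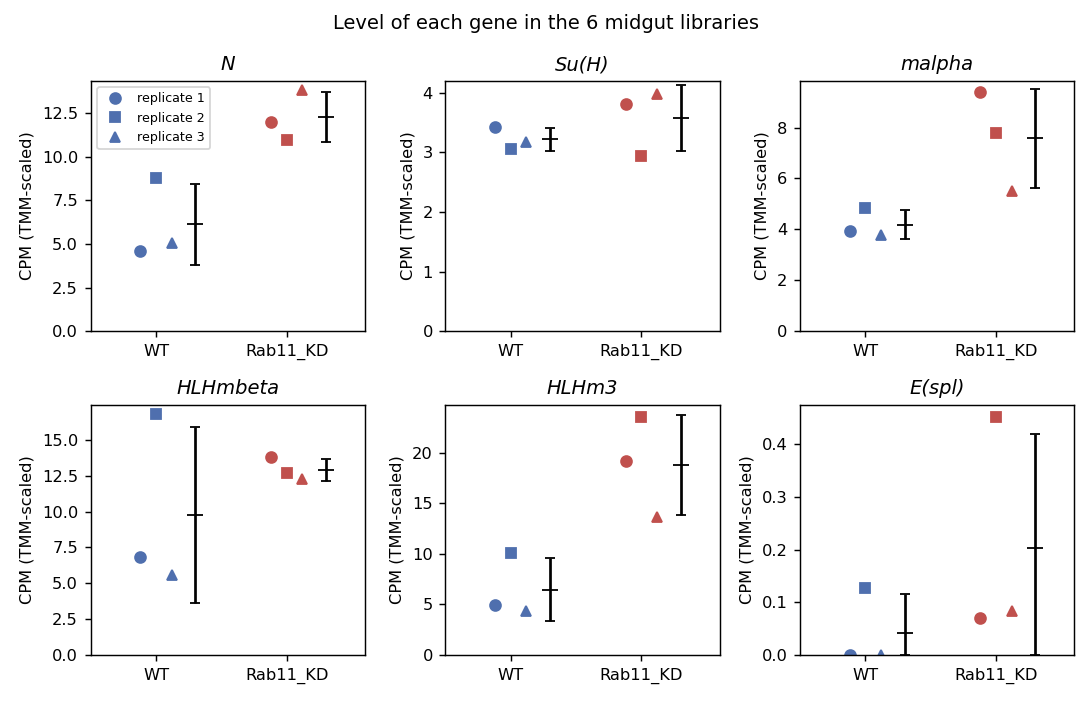
Level of N, Su(H), malpha, HLHmbeta, HLHm3 and E(spl) in CPM, by group, with each library as a point and its replicate as a symbol; bars give the mean ± SD of 3 libraries and are drawn down to 0 at most. For N, malpha and HLHm3 the 3 knockdown libraries sit above the 3 wild-type libraries, and wild-type replicate 2 is the highest control for every gene but Su(H).

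Of the 5 tested genes, N, malpha and HLHm3 (3 of 5) lay higher in every knockdown library than in every control, where the same held for 20.2% of all genes tested. Since RNA came from whole midguts, more cells that express a gene and more RNA per cell cannot be told apart for any of these values.

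Levels can be set between genes only per length, here as CPM per kb of annotated exon. In the wild type HLHmbeta stood highest, at 9.97 ± 6.28 CPM per kb, followed by malpha at 6.19 ± 0.847 and HLHm3 at 4.94 ± 2.4 (SD, n = 3 each). These 3 targets overlapped with their neighbours in that order. Su(H), at 1.09 ± 0.0647 CPM per kb, and N, at 0.604 ± 0.228, followed without overlap, and E(spl) was last at 0.0552 ± 0.0956. In the knockdown the order of the first 3 was HLHm3 at 14.4 ± 3.80, HLHmbeta at 13.2 ± 0.796 and malpha at 11.2 ± 2.90 CPM per kb, again with overlap. N and Su(H) were then level, at 1.21 ± 0.143 and 1.21 ± 0.190 CPM per kb.

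The authors' deposited table, which lists 2450 genes with a DESeq2 adjusted p under 0.1, holds HLHm3, N and malpha. In the authors' deposited table the log2 fold change was 1.42 for HLHm3 (DESeq2 adjusted p = 0.00321), 0.95 for N (0.0234) and 0.79 for malpha (0.0819). Su(H), HLHmbeta and E(spl) do not appear in the authors' deposited table. The direction of all 5 tested genes was the same under the 12 other settings and left-out libraries tried. Of these 12, HLHm3 was called in 8, N in 4, malpha in 1, and HLHmbeta and Su(H) in 0. The scaling of libraries matters for the size of each value. When libraries were scaled by their totals only, the log2 fold change of the median gene shifted to 0.47. In that fit 13.8% of genes were called as higher, which made up 82.8% of the calls where TMM gave 54.3%. Relative to the median of all genes, N stood at 1.03 there against 0.98 with TMM, malpha at 0.80 against 0.82 and HLHm3 at 1.5 against 1.52.

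**Figure D2:**
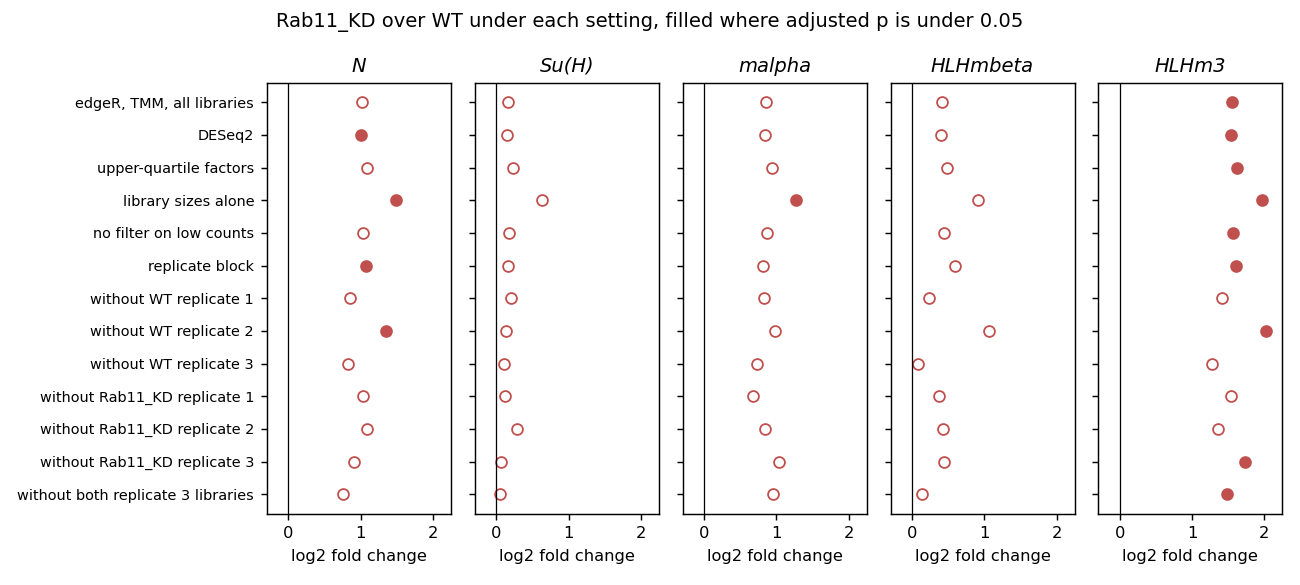
Log2 fold change of knockdown over wild type for the 5 tested genes under the fit with TMM and the 12 other settings, filled where the adjusted p is under 0.05. HLHm3 stays between 1.27 and 2.02, N between 0.76 and 1.49, and HLHmbeta moves from 0.08 without wild-type replicate 3 to 1.06 without wild-type replicate 2.

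The other genes of the Enhancer of split complex were mostly silent in the midgut. Of the 8 in the list, only m1 had enough counts to be tested. m1, now named Kaz-m1 and the most abundant gene of the complex, is neither a bHLH nor a Bearded family gene. It lay between 88.0 and 149.7 CPM in the knockdown and between 132 and 188 CPM in the wild type, with overlapping groups and a log2 fold change of -0.50 (95% interval -1.15 to 0.14, edgeR adjusted p = 0.256). Exons of m1 overlap those of a long noncoding RNA in the later annotation, so reads of both may be mixed. Without the filter on low counts edgeR called 0 of 6 of these genes (2 at an unadjusted p under 0.05), and DESeq2 called 0.

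Both genes with an unadjusted p under 0.05 were too low for the main test. HLHm7, a bHLH gene, was counted 40 times in the knockdown and once in the controls, 26.9 times as often after scaling (95% exact binomial interval 4.55 to 1088). Knockdown levels of 0.495, 0.226 and 0.649 CPM stood against 0, 0 and 0.0315 CPM, so that the groups did not overlap. Without a filter the edgeR adjusted p of HLHm7 was 0.0565. The Bearded family gene m6 went the other way, with 11 counts against 32 in the controls, or 0.231 times as many after scaling (95% interval 0.105 to 0.470, edgeR adjusted p = 0.181 with no filter). Its knockdown levels of 0.0707, 0.339 and 0.147 CPM stood against 1.14, 0.891 and 0.503 CPM, also without overlap. How often genes this low separate the groups was not computed. HLHmgamma stood at 0.480 ± 0.368 CPM under knockdown and 0.486 ± 0.460 CPM in controls, and HLHmdelta and m2 had 3 and 10 counts over all libraries. 0 counts fell on m4 or HLHm5, which allows a level of up to 0.0254 CPM over the 6 libraries.

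HLHmbeta and HLHm3 together made up between 92.1% and 98.6% of the counts of the 7 bHLH genes of the complex in each library. Summed over these 7 genes, the knockdown libraries reached 33.8, 37.9 and 26.9 CPM and the controls 12.8, 27.2 and 10.2 CPM. Wild-type replicate 2 exceeded knockdown replicate 3, so the sums overlapped. Of the 4 Bearded family genes, malpha held between 94.5% and 98.5% of counts in the knockdown and between 73.8% and 87.6% in the wild type. The gene gro, at the end of the complex, encodes the corepressor that the bHLH proteins recruit, and it stood at 54.5 ± 3.26 CPM under knockdown and 62.0 ± 4.82 CPM in controls (log2 fold change -0.19, edgeR adjusted p = 0.492). Exons of gro overlap those of Exo84.

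**Figure D3:**
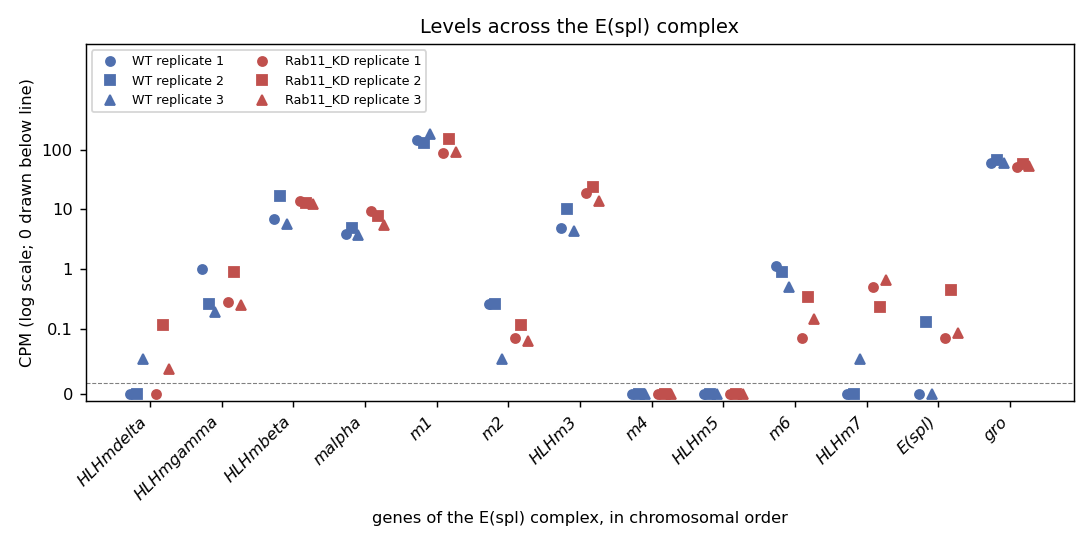
Level in CPM, on a log axis with 0 drawn below the dashed line, of the 12 genes of the Enhancer of split complex and the neighbouring gro in chromosomal order, for each library. Counts concentrate on HLHmbeta, malpha, m1, HLHm3 and gro, and m4 and HLHm5 are at 0 in all 6 libraries.

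Other Notch pathway genes were counted from 5 lists of 32 genes in all, of which 31 were tested. Of these 31, 5 rose and 0 fell, beside 9.05% and 7.63% of all genes. Their median log2 fold change was 0.25. The genes that rose were Dl among the ligands, aph-1 and Psn in receptor cleavage, fng in glycosylation and l(2)gd1 in trafficking. The lists are small, and differences between them were not tested.

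Among the ligands and the genes of their endocytosis, 1 of 5 rose. The ligand gene Dl, carried by stem cells, was at 13.4, 13 and 15.4 CPM in the knockdown and at 2.29, 3.44 and 2.26 CPM in the wild type. Its log2 fold change was 2.4 ± 0.28 (SE, edgeR adjusted p = 0.00337), and the call held with each library left out. The second ligand, Ser, stood at 3.95 ± 1.84 CPM in the knockdown and 5.29 ± 2.27 CPM in the wild type (log2 fold change -0.42, edgeR adjusted p = 0.586). The ubiquitin ligase genes neur and mib1 and the epsin gene lqf, which promote ligand uptake, stood at 0.35, 0.25 and 0.51 on the log2 scale and did not pass.

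In receptor cleavage, 2 of 5 tested genes rose, both of the gamma-secretase complex that frees the intracellular domain. The subunit gene aph-1 was at 26.6, 41.6 and 38.3 CPM in the knockdown and at 13.5, 7.13 and 11.5 CPM in the wild type (log2 fold change 1.73 ± 0.30, SE, edgeR adjusted p = 0.0104). This call held with each library left out. The catalytic subunit gene Psn went from 55.0 ± 9.76 to 94.6 ± 13.8 CPM (log2 fold change 0.78, edgeR adjusted p = 0.0468), a call lost with any single library left out (adjusted p 0.0954 to 0.116). Exons of Psn overlap those of mRpL15. The remaining subunit genes pen-2 and nct stood at 0.98 and 0.72 on the log2 scale, with edgeR adjusted p of 0.0974 and 0.126, and pen-2, whose exons overlap those of sbb, was called with the replicate block (0.0253) and without wild-type replicate 3 (0.0478). The protease gene kuz, which makes the first ligand-induced cut, stood at 0.68 (adjusted p = 0.212), and Tace was too low to be tested.

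In glycosylation, fng rose and the other 3 genes did not pass. Fringe adds a sugar to Notch that favours its response to Delta over Serrate. Its gene stood at 15, 22.0 and 14.6 CPM in the knockdown and at 2.03, 3.69 and 3.33 CPM in the wild type, far apart in every library. The log2 fold change of fng was 2.50 ± 0.32 (SE, edgeR adjusted p = 0.00428), and the call held with each library left out. Exons of fng overlap those of CG10589, so reads of that gene may be included. O-fut1, rumi and CG9996, the gene of the xylosyltransferase Shams, stood at 0.20, 0.21 and 1.0.

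Among 11 genes of receptor trafficking and turnover, 1 rose, l(2)gd1, a share close to the 9.05% of all genes tested. The median log2 fold change of the 11 was -0.003. Lethal giant discs, the protein of l(2)gd1, is needed for the passage of Notch through endosomes. The level was 48.1 ± 10.9 CPM in the knockdown and 23.0 ± 3.79 CPM in the wild type (log2 fold change 1.07, edgeR adjusted p = 0.0229). The call did not survive the removal of wild-type replicate 1 or 2 or of knockdown replicate 1 (adjusted p up to 0.0918), and its exons overlap those of Idua. The gene spdo, whose protein Sanpodo travels with Notch in asymmetric divisions, went from 1.30 ± 0.465 to 3.41 ± 0.567 CPM (log2 fold change 1.44, edgeR adjusted p = 0.0535). It was called with the replicate block (0.0332) and with DESeq2 (0.0233). The most abundant gene of the list, the ubiquitin ligase gene Su(dx), stood at -0.45 (adjusted p = 0.232), and numb, which encodes a Notch inhibitor, at -0.28 (adjusted p = 0.544).

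The 6 nuclear cofactors gave 0 calls in edgeR with or without the replicate block and 0 in DESeq2 (0 at an unadjusted p under 0.05 in edgeR). The antagonist gene H, whose protein bridges Su(H) to corepressors, stood at 13.6 ± 1.67 CPM under knockdown and 19.3 ± 3.13 CPM in controls (log2 fold change -0.50, edgeR adjusted p = 0.156). The coactivator gene mam stood at -0.24, and the coactivator gene nej, the most abundant of the 6 over all libraries, at -0.36.

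**Figure D4:**
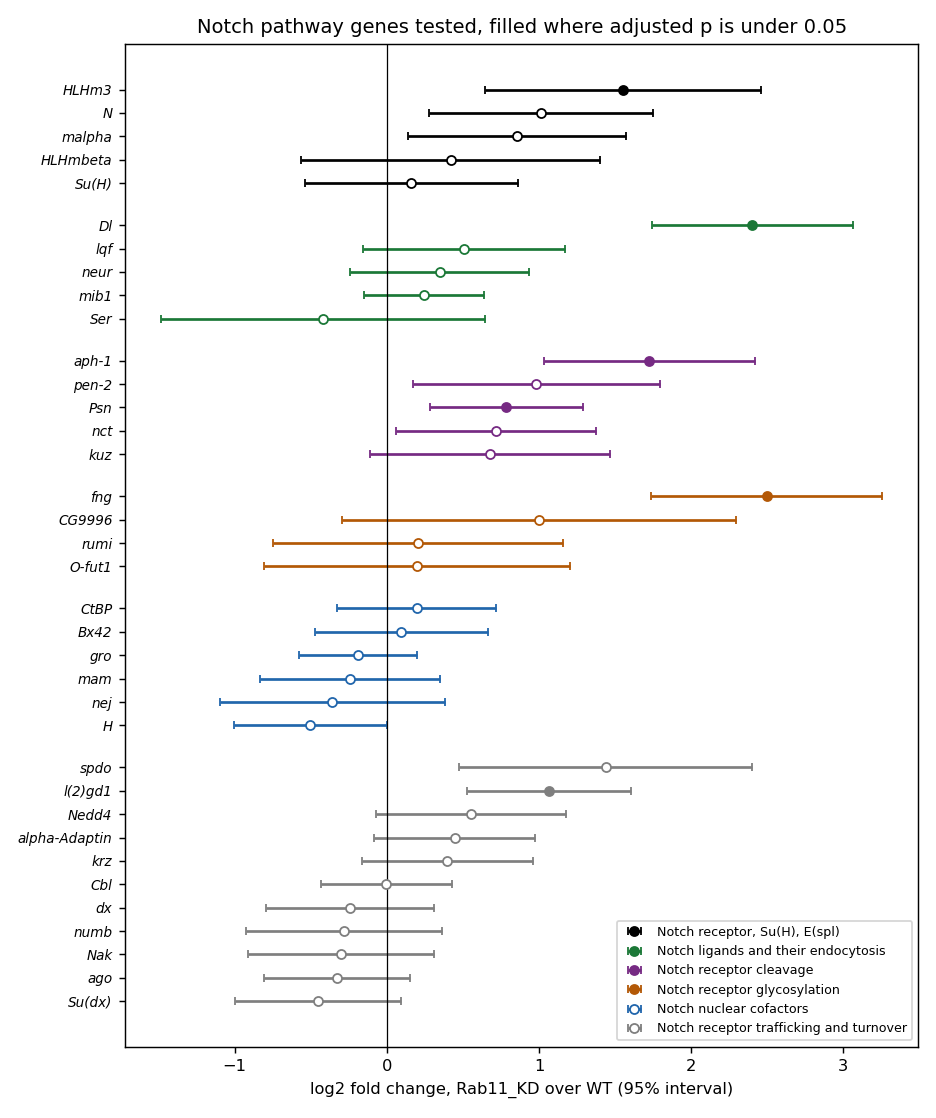
Log2 fold change of knockdown over wild type with its 95% interval for the 5 tested genes of the receptor, Su(H) and E(spl) group and for 31 other Notch pathway genes, grouped by role and filled where the edgeR adjusted p is under 0.05. Filled points are HLHm3, Dl, aph-1, Psn, fng and l(2)gd1, and the 6 nuclear cofactors lie between -0.50 and 0.20.

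The bHLH repressors of the complex act on proneural genes, which drive cells towards the enteroendocrine fate in the midgut. Of 10 proneural and enteroendocrine fate genes, which include inhibitors such as emc, 6 were tested. Of these 6, 2 rose and 0 fell, beside 9.05% and 7.63% of all genes tested. Of the 4 too low for the test, phyl had 44 counts under knockdown and 1 in controls, and ase had 31 and 1. The gene l(1)sc had 0 and 3 counts, and ac had 0 in all libraries. DESeq2, which placed 10.6% of genes higher, also called phyl as higher. The proneural gene sc was counted 123 times under knockdown and 4 times in controls, at 0.919, 1.58 and 2.01 CPM against 0.127, 0 and 0.0944 CPM (log2 fold change 4.12, edgeR adjusted p = 0.0117). Its call was lost without wild-type replicate 1 or knockdown replicate 2 (adjusted p up to 0.0518). The homeobox gene pros, a mark of enteroendocrine cells, rose from 8.90 ± 2.30 to 19.0 ± 0.0197 CPM (log2 fold change 1.11, edgeR adjusted p = 0.0265), a call that held only without wild-type replicate 2 among the 6 fits with a library left out. Its exons overlap those of a long noncoding RNA. The most abundant gene of the list, emc, whose protein binds and inhibits proneural factors, had a log2 fold change of -0.81 (edgeR adjusted p = 0.121) and was called as lower in the blocked fit (0.0354). The repressor gene klu, a Notch target of enteroblasts, stood at 9.04 ± 1.33 CPM in the knockdown and 12.3 ± 3.66 CPM in the wild type (log2 fold change -0.44, adjusted p = 0.348).

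Some lists of cell type markers differed between the groups and others did not. Of 8 stem cell and enteroblast markers, which include Dl and klu, 4 rose and 0 fell. Beside this and the counts of the other marker lists, 9.05% of all genes tested rose and 7.63% fell. The summed level of the 8 markers was 171 to 183 CPM in the knockdown and 65.1 to 141 CPM in the wild type, where replicate 2 was the highest. The difference between these sums rests largely on Sox21a and on Sox100B, which went from 10.2 ± 7.17 to 47.2 ± 3.11 CPM. It is not a trait of all 8 markers. Of the 8 markers, Sox21a went from 4.79 ± 3.13 to 54.3 ± 3.20 CPM, while esg, the general mark of both cell types, was at 20.2 ± 7.26 and 26.6 ± 1.40 CPM (log2 fold change 0.40, edgeR adjusted p = 0.354). The marker mira went the other way, from 40.7 ± 20.3 to 18.1 ± 5.73 CPM, with overlapping groups (log2 fold change -1.18, edgeR adjusted p = 0.101). On the log2 scale klu stood at -0.44 and zfh2 at -0.03. Of 10 enteroendocrine markers matched, 8 rose, with sums of 655 to 919 CPM against 230 to 281 CPM. Of 11 enterocyte markers, 2 rose (Tsp2A and CG31004, the gene mesh) and 2 fell (Jon25Biii and CG5322, the gene LManI). The sums of the 11 were 21491 to 54491 CPM in the knockdown and 53516 to 104660 CPM in the wild type, and they overlapped. These sums rest largely on the digestive enzyme genes alphaTry, betaTry, Jon25Biii and Mal-A1 and are not a trait of all 11 markers. Jon25Biii went from 15532 to 552 CPM, while CG31004 went from 1279 to 3981 CPM. Among the markers tested, which were 11 of 11 for visceral muscle, 5 of 5 for trachea, 2 of 6 for hemocytes and 4 of 5 for neurons, edgeR gave 0 calls (1, 0, 0 and 1 at an unadjusted p under 0.05). The hemocyte markers Hml, nimC1, He and eater and the neuron marker para were too low to be tested, and muscle sums reached 1617 CPM in wild-type replicate 3 against 642 to 856 CPM elsewhere. The part of these cell types in the levels of N, malpha, HLHmbeta and HLHm3 was not tested.

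Genes with the most similar pattern were found by the root mean square difference of log2 CPM values, each centred on its mean over the 6 libraries, among the tested genes with at least 5 CPM. Nearest to N was GAPsec, at a difference of 0.142, followed by CG15117 and ena. Nearest to HLHm3 were Cyp6a13, at 0.152, CG8735 and CG32170. CG6153, CG8142 and CG3040 were nearest to malpha, with CG6153 at 0.0267, and Wwox, Su(z)12 and CG8878 to Su(H), with Wwox at 0.0209. HLHmbeta, with its high wild-type replicate 2, had the most distant neighbours, CG3394 at 0.181, CG16892 and mip120. None of these 15 genes belonged to the other Notch pathway lists. Those lists hold only 31 tested genes, and some of them, such as O-fut1 and rumi, lay below 5 CPM and were not compared. Beside the 6832 genes compared for N these are few, so their absence says little about shared patterns.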

How the data were processed

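The authors deposited raw read counts per gene for 6 libraries. The submitters' processing notes list STAR 2.4.2a, HTSeq 0.6.1, DESeq2 and the build BDGP5. Strand and counting mode are not given in the sources, so reads of overlapping genes cannot be told apart. Exon overlaps, exonic lengths and gene names came from a later annotation (BDGP6), so no coordinates are given. Per the file headers, the authors' deposited comparison table holds the mean normalized signal, its log2 fold change, the standard error of that change, a Wald score, the p-value and the adjusted p of each gene.

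Groups and replicate numbers came from the sample titles. The labels do not say whether replicates came from different flies. The p-values therefore reflect only how these libraries vary, which may be technical. Libraries of a group differed far beyond sampling noise (chi-square per gene 69.8 to 438). Genes were kept by filterByExpr (minimum count 10), scaled by TMM and tested with edgeR 4.0.16 in R 4.3.3 (quasi-likelihood F-test, group only, two-sided, Benjamini-Hochberg over 8377 genes, threshold 0.05), with DESeq2 1.42.0 as an alternative. Log2 CPM used a prior count of 2. The test was checked on simulated counts. Poisson and binomial intervals are at 95%, cover counting error only, and an undetected gene was given a floor of 3 counts. The 95% intervals of log2 fold changes hold for each gene alone and are not adjusted over the genes tested. They can therefore leave out no change where the adjusted p does not pass, as for N and malpha.

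After subtraction of the group mean, libraries that share a replicate number had correlations of 0.14, 0.21 and 0.71 across genes. All exceeded 0.1, so a fit blocked on this number was added. The pairing rests on the data alone, and crossed numbers reached 0.34 (knockdown 1 with wild type 2) and 0.51 (knockdown 2 with wild type 1). The genes followed and the gene lists were chosen with earlier results of these data known. All 6 genes were named, with list members past the threshold (up to 6 per list), each list's most abundant member that did not pass, and the 3 most similar genes per tested gene; other list members were added after their values were seen. Of 113 list entries, 112 were matched.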

Additional observations from a re-analysis of the deposited data

How the results depend on the processing

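Across all genes, 1397 were called with the settings above, against 2451 with the replicate block and 460 to 1138 with a single library left out. Of the 5 tested genes, the count called was 1, against 2 with DESeq2, 2 with the replicate block and 3 with library sizes alone (HLHm3, N and malpha), and 0 to 2 with a library left out. The paired fit changed the call of N among these 5 and no other. Without both replicate 3 libraries HLHm3 kept its call (log2 fold change 1.48, adjusted p = 0.0283). The other genes of the complex gave 0 calls throughout. Of the 31 other Notch pathway genes 5 were called, against 3 to 5 with a library left out, and of the fate genes 2, against 0 to 2. Psn lost its call with no filter (adjusted p = 0.0658) and without both replicate 3 libraries (0.0966). For spdo, upper-quartile factors gave a call (adjusted p = 0.047). The mean log2 CPM difference of E(spl), 0.97 with a prior count of 2, was 1.89 with 0.5, because at so few counts the prior sets the value. No called gene changed sign. Depth limits E(spl), HLHm7 and m6, and with 3 libraries a group the exact permutation test cannot go below 0.1.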

Other observations

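Per count of HLHm3, the knockdown libraries held 0.720, 0.538 and 0.902 counts of HLHmbeta and the controls 1.38, 1.67 and 1.29, with no overlap between the groups. These are ratios of counts, not corrected for gene length, and do not rank the levels of the 2 genes. The ratio does not depend on the scaling of libraries, and wild-type replicate 2, which was high for both genes, lies on the same side as the other controls. The difference of the mean log2 ratio was -1.03 (exact two-sided permutation p = 0.1, the smallest possible; 0.333 adjusted over 10 pairs). The ratio was singled out after its values were seen.

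The ratios that also separated the groups were Su(H) to HLHm3, with knockdown values of 0.199, 0.125 and 0.292 against 0.692, 0.304 and 0.732, and N to Su(H), with 3.15, 3.73 and 3.48 against 1.33, 2.88 and 1.58. Both had the same permutation p of 0.1 and adjusted p of 0.333, so none of the 10 passed. HLHm3, the gene called as higher, is part of the ratios to HLHmbeta and to Su(H), and how often ratios of other gene pairs separate the groups was not computed. The ratios of N to HLHm3 overlapped, from 0.466 to 1.02 in the knockdown and from 0.873 to 1.16 in the wild type.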
